A study of Mus musculus with 4 samples.

Results

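Microglia, the resident macrophages of the brain, were compared by their distance to blood vessels in sections of neonatal mouse brain measured by MERFISH, an imaging assay that counts single transcripts of selected genes inside segmented cells. Members were chosen by their own counts of marker genes and by position. A cell with at least 20 gene counts was taken as a microglial cell when it held at least 3 counts each of Csf1r and Cx3cr1, fewer than 5 of the border macrophage gene Mrc1 and fewer than 5 of the endothelial gene Cldn5. A vessel cell held at least 8 counts of Cldn5 and at least 1 of Pecam1. Of 794833 cells that met the count minimum (863580 in all), 9897 were microglia and 40052 were vessel cells. Near microglia, 1346 in all, had their centre within 15 coordinate units of the nearest vessel-cell centre. Far microglia, 4465 in all, lay at 40 to 100 units. Another 3718 lay at 15 to 40 units and 368 beyond 100 units. The files give no unit for the coordinates, so distances are in coordinate units throughout.

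Microglia enter the brain before birth, spread through the tissue as branched cells and touch neurons, astrocytes and vessels with their processes. Capillary walls consist of endothelial cells, which are joined by Cldn5-containing tight junctions, and pericytes, which carry the receptor Pdgfrb; astrocytes place end-feet rich in the water channel Aqp4 on the same walls. In the young brain, endothelial cells receive Wnt signals through the receptor Fzd4 or through Adgra2 with its partner Reck, and answer with the transcription factors Lef1 and Tcf7.

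The mice were 5 days old (P5), and their right-side whiskers had been lesioned 24 h earlier, at P4. Coronal sections 10 µm thick through the barrel cortex were used, and each of 4 coverslips carried 1 wild-type and 1 Cx3cl1(-/-) section, the latter from a mouse without fractalkine, a chemokine made by neurons. Males were on coverslips 1 and 2, females on 3 and 4. Which section was which genotype, and which side was which hemisphere, was not assigned, so every value pools genotypes and hemispheres and the replicate was the coverslip (n = 4). Nothing in the labels says how many animals the coverslips represent, and whether 2 of them share an animal is unknown. The p-values therefore measure how differences within a coverslip vary between coverslips, not between animals. In the edgeR tests the estimate of this spread is partly shared across genes.

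Near cells numbered 282, 262, 290 and 512 on coverslips 1 to 4, and far cells 914, 1034, 1057 and 1460. Gene counts totalled between 33519204 and 76555311 per coverslip, the highest on coverslip 4, and a microglial cell had a median of 122 to 185 counts. The label was checked against markers that the rule did not use. C1qa, a complement subunit gene made by microglia, was found in 95.8% of far and 96.3% of near cells; Ptprc, the leukocyte surface gene, was found in only 27.4% and 26.2%. Among cells just outside the rule, 1005 had 2 counts of Csf1r but met all else, against 769 members with exactly 3. The Cldn5 limit kept out 659 cells that otherwise met the rule, of which 495 were vessel cells by the rule themselves. Of the 659, 355 lay within 15 units of another vessel cell, 102 of them not vessel cells, and 118 lay at 40 to 100 units. At the distance limit, 153 members lay at 14 to 15 units and 151 microglia at 15 to 16 units.

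The share of microglia close to vessel cells was higher than that of other cells on every coverslip. On coverslips 1 to 4, 14.6%, 12.2%, 12.5% and 14.6% of microglia were within 15 units of a vessel-cell centre, with a mean of 13.5% ± 1.29 (SD, n = 4). Among all other non-vessel cells the share was 8.35% ± 0.780, among astrocytes 10.0% ± 1.27 and among oligodendrocyte precursors 7.63% ± 0.440. The microglial share was the higher on 4 of 4 coverslips in each of these 3 comparisons. The paired two-sided exact permutation test gave p = 0.125 for each (0.125 after Benjamini-Hochberg adjustment), which is the smallest p that 4 coverslips can give. The median distance of a microglial cell was 39.8 units ± 2.26, against 44.4 ± 2.94 for all other non-vessel cells. Astrocytes were close to microglia in this measure, at 40.5 ± 2.51, and oligodendrocyte precursors were at 43.5 ± 1.96. On coverslip 3 astrocytes had the shorter median distance, 39.7 against 39.9 in microglia, and on the others microglia did.

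Near microglia had a smaller segmented volume and more neighbouring cells, vessel cells included, on each of the 4 coverslips. Their mean volume was 757, 833, 777 and 782 volume units on coverslips 1 to 4, against 859, 975, 925 and 920 in far microglia, so the groups did not overlap and the near mean was 0.856 of the far mean. A near cell held 167 ± 33.7 gene counts and a far cell 179 ± 35.2 (SD, n = 4). Per 1000 volume units the order turned, with 216 ± 43.4 near and 196 ± 38.7 far, higher near on 4 of 4 coverslips. Another cell centre lay within 15 units 3.16 ± 0.202 times per near cell and 1.92 ± 0.143 times per far cell. By the rule a near cell has at least 1 vessel-cell centre within 15 units and a far cell none. Part of the neighbour difference, and so its direction in the test, was therefore set by the choice of cells. Exact permutation tests of these differences gave p = 0.125, the smallest possible. Because volume was lower near by a larger factor than the count was, gene differences below are given per volume, the main scale, and per cell wherever the call or direction depends on it.

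Vessel transcripts were counted inside near microglia at a low level. Cldn5 averaged 0.553, 0.561, 0.600 and 0.557 counts per near cell on coverslips 1 to 4 and 0.0591, 0.0590, 0.0776 and 0.0945 per far cell. Pecam1, which encodes an adhesion molecule of endothelial and some immune cells, averaged 0.436, 0.489, 0.403 and 0.584 near and 0.158, 0.167, 0.184 and 0.210 far. Both genes chose the vessel cells, and Cldn5 also limited the microglia, so these values are a description without a test. The near-minus-far difference was 1.52% ± 0.295 (SD, n = 4) of the vessel-cell level for Cldn5 and 3.35% ± 0.474 for Pecam1, where a vessel cell held 33.2 and 8.93 counts. With distance, mean Cldn5 was 0.856 counts per microglial cell within 10 units and 0.361 at 10 to 15 units. It was 0.148 at 15 to 25 units, 0.0867 at 25 to 40 units and 0.0725 in far cells. Pecam1 was 0.544 within 10 units, 0.430 at 10 to 15, 0.229 at 15 to 25 and 0.180 in far cells.

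**Figure D1:**
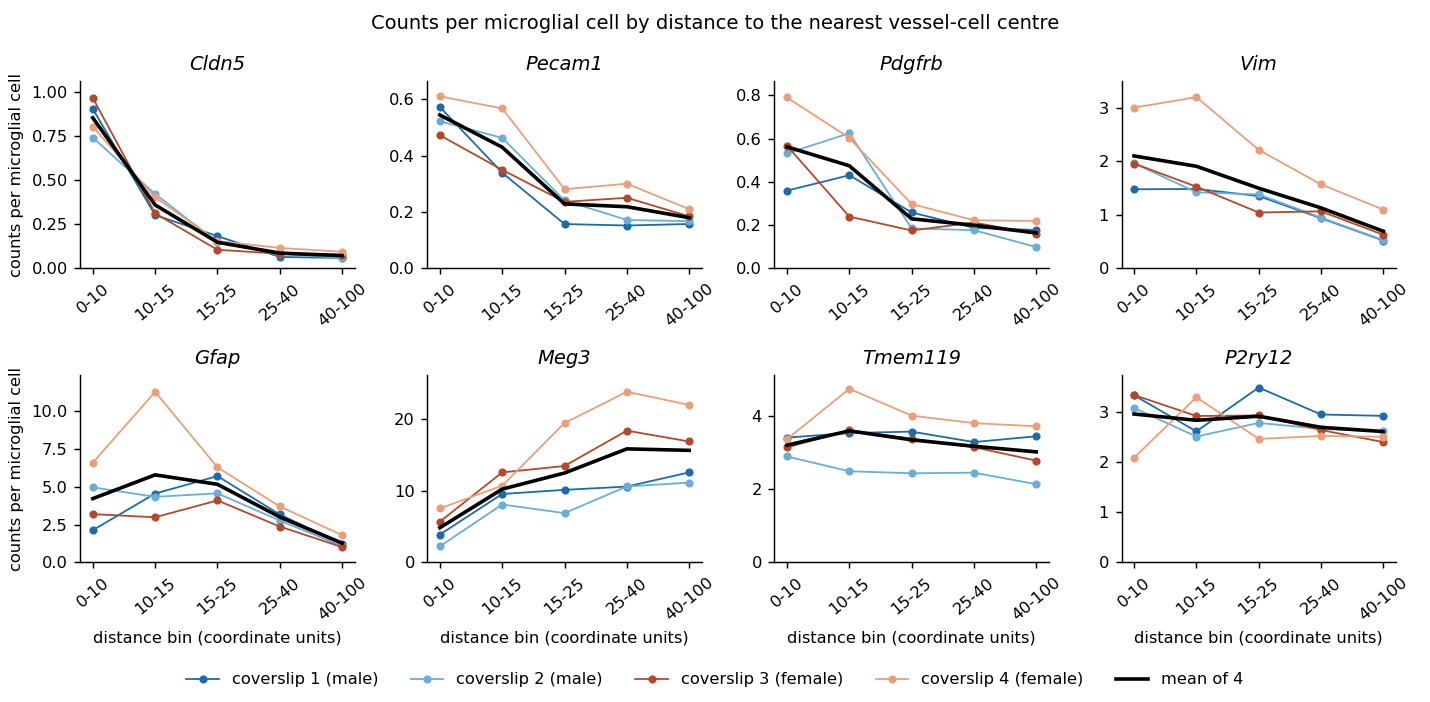
Mean counts per microglial cell (y axis) in 5 bins of distance to the nearest vessel-cell centre (x axis, coordinate units) for 8 genes; thin lines are the 4 coverslips and the black line is their mean. Cldn5, Pecam1 and Pdgfrb were lowest beyond 40 units, Vim declined over all bins, Gfap and Meg3 changed over a longer range in opposite directions, and the coverslips differed in the course of P2ry12.

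Near microglia held more counts of genes of astrocytes and of the vessel wall, and fewer of neuronal genes. Of 135 genes tested per volume with edgeR's quasi-likelihood test, which left out the 5 genes of the rule, 34 were higher near (25.2%) and 19 lower (14.1%) at an adjusted p of 0.05, 39.3% in either direction. A call also required more counts per cell than any of the 40 blank barcodes, codes assigned to no gene whose counts are decoding errors, on every coverslip in the higher group. Of the higher genes 10 passed this rule through the near group only (Id1, Adgra2, Pdgfrb, Tcf7l1, Wnt5a, Lef1, Gpc3, Fzd4, Fzd10 and Fzd1), and Sfrp2 of the lower genes through the far group only. Their other group did not exceed the blanks on every coverslip, so the sizes of their differences are uncertain. The median log2 difference of all 135 genes was 0.12 per volume and -0.10 per cell. Scaled by cell number, 16 genes were higher (11.9%) and 32 lower (23.7%); with TMM factors, which assume that most genes do not differ, 22 were higher (16.3%) and 24 lower (17.8%), and with total counts 23 and 23 (17.0% each). Under all 4 scalings 16 genes stayed higher and 19 stayed lower. The 16 were Adgra2, Aldoc, Aqp4, Daam2, Ezr, Gfap, Glul, Gpc3, Id1, Lef1, Pdgfrb, Tcf7l1, Tmem119, Vim, Wls and Wnt5a. A further 16 genes passed the adjusted p but did not exceed the blanks.

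**Figure D2:**
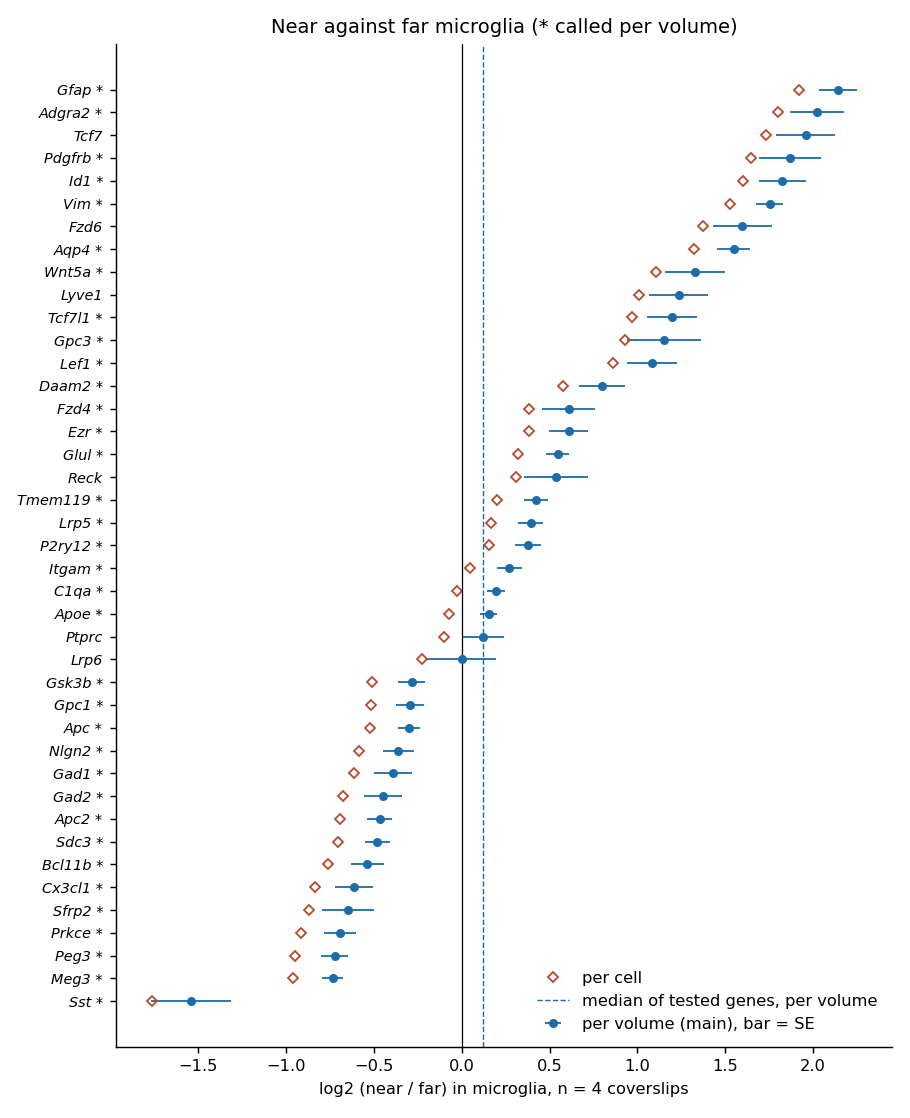
Log2 difference of near over far microglia (x axis) for the named genes that were tested (y axis, asterisk where called per volume); filled points with bars are values per volume with SE from edgeR (n = 4 coverslips), open diamonds are values per cell, and the dashed line is the median of all tested genes per volume. Gfap, Adgra2, Pdgfrb, Id1, Vim and Aqp4 lay above 1.3 on both scales, whereas C1qa and Apoe lay above 0 per volume and below 0 per cell.

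The intermediate-filament genes Gfap and Vim showed the firmest differences. Gfap, the filament gene of astrocytes, averaged 3.54, 4.60, 3.07 and 9.47 counts per near cell on coverslips 1 to 4 and 1.21, 1.08, 1.02 and 1.80 per far cell. Every near value exceeded every far value, and coverslip 4 was highest in both groups. The difference was log2 2.14 ± 0.11 (SE, adjusted p = 9.72e-12, edgeR). Vim, the filament gene of immature glia, endothelial and mural cells, averaged 1.48, 1.66, 1.72 and 3.13 near against 0.521, 0.528, 0.628 and 1.10 far. These groups did not overlap either, at log2 1.75 ± 0.08 (adjusted p = 2.41e-12). Aqp4 averaged 2.02, 1.41, 1.41 and 3.41 near and 0.781, 0.663, 0.651 and 1.07 far, again without overlap, at log2 1.55 ± 0.09 (adjusted p = 1.49e-10). Glul, the glutamine synthetase gene of astrocytes, rose by log2 0.55 ± 0.07 (3.60 counts per near and 2.87 per far cell, adjusted p = 1.61e-06).

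All 5 measured genes of the astrocyte list were higher per volume, among them the folate enzyme gene Aldh1l1 (log2 0.49), the transcription factor gene Sox9 (0.33) and the glutamate transporter gene Slc1a3 (0.30); per cell only Gfap and Aqp4 were called. The summed level of the list was 6.93 to 18.4 counts per near cell and 4.09 to 7.08 per far cell. Gfap was found in 54.1% of near and 37.0% of far cells, and Aqp4 in 39.9% and 29.9%. Astrocytes themselves held 22.5 Gfap counts near vessel cells and 7.41 far from them, and the part of their RNA in the microglial values was not tested. With distance, mean Gfap in microglia was 4.21 counts within 10 units, 5.78 at 10 to 15, 5.16 at 15 to 25 and 3.00 at 25 to 40. The bin with the highest value differed between coverslips: 10 to 15 units on coverslip 4 (11.3), 15 to 25 on coverslips 1 and 3 (5.70 and 4.09) and within 10 on coverslip 2 (4.96). Where near and far cells were drawn in equal number from the same squares of tissue of side 500 units (1089 of each), Gfap fell to log2 1.42, Vim to 1.43 and Aqp4 to 0.87, and all 3 were still called.

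Genes of the vessel wall were higher near, as were Cldn5 and Pecam1, which chose the vessel cells. Pdgfrb, Adgra2 and Id1, given here, passed the blank rule through the near group only. The sizes of their differences are therefore uncertain. Pdgfrb averaged 0.401, 0.584, 0.383 and 0.674 counts per near cell and 0.177, 0.0986, 0.159 and 0.219 per far cell. No coverslip overlapped between the groups, and the difference was log2 1.87 ± 0.18 (adjusted p = 6.47e-08, edgeR). Adgra2, the adhesion receptor of the Wnt7 signal, averaged 0.507, 0.481, 0.379 and 0.498 near against 0.120, 0.0938, 0.143 and 0.181 far. This was log2 2.02 ± 0.15 (adjusted p = 3.47e-09), without overlap, but all far values lay below the highest blank, which stood at 0.133, 0.122, 0.197 and 0.259 counts per far cell. Id1, a target gene of BMP signalling, averaged 0.457, 0.294, 0.303 and 0.576 near and 0.113, 0.105, 0.115 and 0.201 far, at log2 1.83 ± 0.14 (adjusted p = 3.06e-09). Among microglia with no count of Cldn5 or Pecam1 (749 near, 3681 far), Adgra2 was at log2 1.56 and Id1 at 1.74, both still called, while Pdgfrb was at 1.29 and not called.

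Of the 8 measured genes that transmit Wnt signals in vessels, 4 rose, none fell, and 3 passed the adjusted p below the blanks. Among all tested genes 25.2% rose. The median of the 8 was log2 0.85, against 0.12 for all genes. Of the risen genes, Adgra2, Lef1 and Fzd4 passed the blank rule through the near group only, so the size of this median is uncertain. Besides Adgra2 the risen genes were Lef1 (1.08 ± 0.14), the receptor gene Fzd4 (0.61 ± 0.15) and the co-receptor gene Lrp5 (0.39 ± 0.07). Lef1 averaged 0.184, 0.237, 0.183 and 0.332 counts per near cell and 0.107, 0.112, 0.124 and 0.171 per far cell, with no overlap. All its far values lay below the highest blank per far cell, as those of Adgra2 did. Tcf7 (log2 1.96), Fzd6 (1.60) and Reck (0.54) held 0.148, 0.167 and 0.132 counts per near cell, below the highest blank on at least 1 coverslip, and Lrp6 was at 0.00. Fzd4 and Lrp5 were not called per cell (0.39 and 0.17), and Lef1 was called neither in matched squares (0.47) nor in cells without Cldn5 and Pecam1 (0.61).

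The difference per cell was set beside the level of each gene in vessel cells. The proportion of Pecam1, 3.35%, served as the yardstick. That of Cldn5, which also limited the microglia, was lower at 1.52%, so the comparisons with the yardstick depend on this choice. For Lef1 the difference was 3.16% ± 1.15 (SD, n = 4) of that level and for Fzd4 2.76% ± 2.13, and the proportion of Pecam1 lay within the spread of either over the coverslips. It was 5.94% ± 1.99 for Id1, 6.26% ± 2.22 for Adgra2, 9.27% ± 5.84 for Pdgfrb and 9.82% ± 1.47 for Vim. For Aqp4 it was 74.7% ± 35.9 and for Gfap 108% ± 56.5. Of the 34 higher genes, 16 exceeded the Pecam1 proportion on all 4 coverslips, and 21 were higher per cell on all 4. Per cell, vessel cells held more of 27 of these 34 genes than far microglia did, and less of 15 of the 19 lower genes. All these genes had been called higher or lower near in the same cells. The counts of 16, 21, 27 and 15 were not made over all tested genes. They are therefore not set against the whole panel and show nothing particular to the called genes. The Pecam1 proportion came from the same cells, so these counts are a description.

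**Figure D3:**
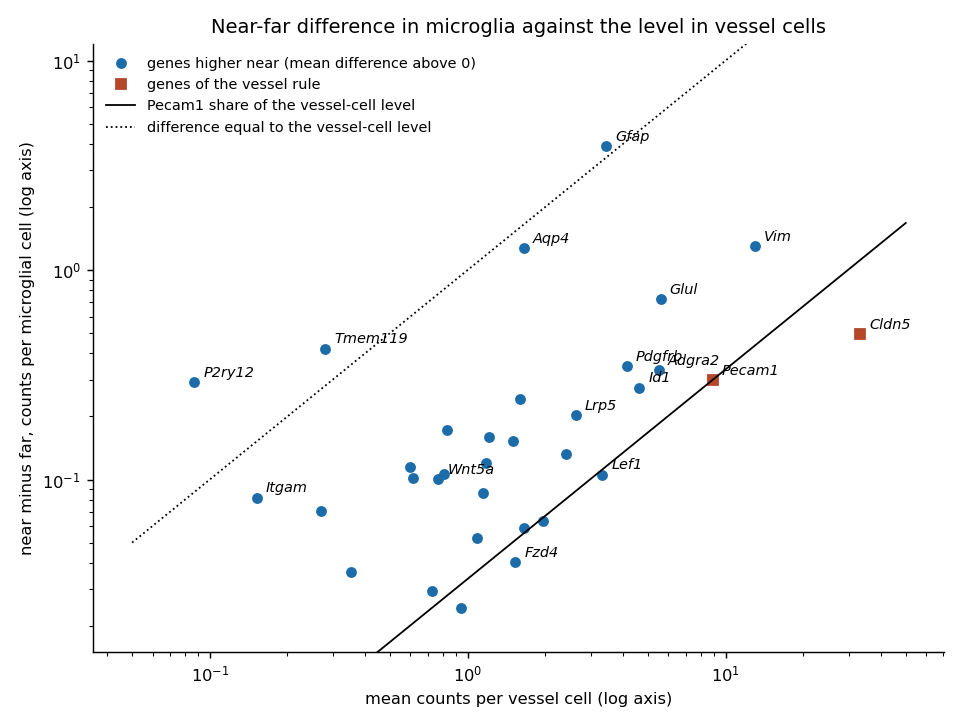
Near-minus-far difference in counts per microglial cell (y axis, log scale) against mean counts per vessel cell (x axis, log scale) for the genes called higher near that had a positive mean difference per cell (circles) and for Cldn5 and Pecam1 (squares); the solid line marks 3.35% of the vessel-cell level, the share found for Pecam1, and the dotted line equality. Lef1 and Fzd4 lay near the solid line, the means of Gfap, Tmem119 and P2ry12 above the dotted line, and Aqp4 just below it.

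Among the genes that mark microglia, Tmem119 and P2ry12 were the most raised near vessels. Tmem119, a surface protein gene of settled microglia, averaged 3.48, 2.66, 3.40 and 4.22 counts per near cell and 3.45, 2.14, 2.78 and 3.72 per far cell. Near exceeded far on each coverslip, by little on coverslip 1, and the ranges overlapped because coverslips differed more than the groups. The difference was log2 0.42 ± 0.07 per volume (adjusted p = 5.37e-05, edgeR) and 0.20 per cell, called on both scales. P2ry12, the receptor gene by which microglial processes sense ATP and ADP, averaged 2.91, 2.76, 3.10 and 2.83 near against 2.92, 2.61, 2.40 and 2.51 far. It was the higher near on 3 of 4 coverslips, at log2 0.38 ± 0.07 per volume (adjusted p = 0.000293) and 0.16 per cell, where it was not called. In matched squares Tmem119 was at log2 0.29, still called, and P2ry12 at 0.21, not called; per cell in those squares Tmem119 was at 0.09 and not called.

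C1qa and Itgam were called per volume only. C1qa averaged 6.07, 6.08, 7.77 and 9.12 counts per near cell and 6.28, 6.24, 7.78 and 9.23 per far cell, values that differed by little on any coverslip. Its log2 difference was 0.20 ± 0.05 per volume (adjusted p = 0.00401, edgeR) and -0.03 per cell. Itgam, an integrin gene of myeloid cells, stood at 0.27 ± 0.07 per volume and 0.05 per cell. Ptprc was not called on either scale (0.12 ± 0.12 per volume). Of the rule's own genes, Csf1r, the receptor on whose signal microglia depend, held 13.9 counts in near and in far cells, and Cx3cr1, the receptor of fractalkine, 12.6 and 12.9. Per volume these genes stood at log2 0.21 and 0.18, given without a test, beside 0.20 for C1qa. Summed over the 7 microglial genes described here, a near cell held 35.1 to 51.7 counts and a far cell 35.04 to 50.1. Thus 4 of the 5 tested genes among the 7 rose per volume and 1, Tmem119, per cell. Among all tested genes 25.2% rose per volume and 11.9% per cell.

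**Figure D4:**
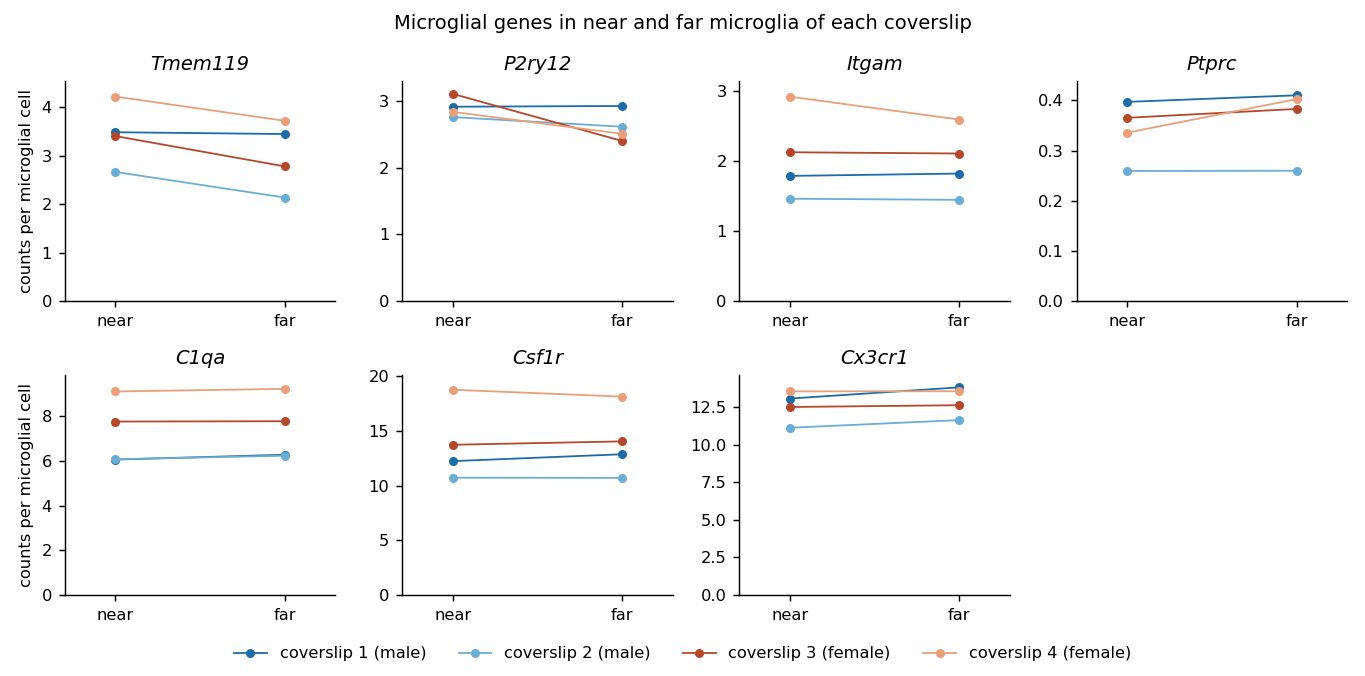
Mean counts per microglial cell (y axis, from 0) in near and far microglia (x axis) for 7 microglial genes; each line joins the near and far value of 1 coverslip. Tmem119 was higher near on 4 of 4 coverslips and P2ry12 on 3, while the lines of C1qa and Cx3cr1 were nearly flat or slightly lower near; Csf1r and Cx3cr1 chose the cells.

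Border macrophages, which line vessels and meninges, carry Mrc1 and Lyve1. Mrc1, limited by the rule, averaged 0.877 ± 0.066 counts per near and 0.780 ± 0.032 per far cell, given without a test. Lyve1 averaged 0.111 ± 0.009 and 0.0552 ± 0.008 (SD, n = 4); its log2 difference of 1.24 ± 0.17 passed the adjusted p but did not exceed the blanks. The list's sum was 0.905 to 1.06 counts per near cell and 0.810 to 0.875 per far cell. Cells with at least 5 Mrc1 counts held 2.04 Tmem119 counts. Without microglia that had a Pdgfrb-rich or Mrc1-rich cell within 15 units (812 near and 4331 far cells left), Tmem119 was at 0.34 and still called, and P2ry12 at 0.25 and not called. Apoe, a lipoprotein gene of astrocytes and responding microglia, averaged 30.8 counts per near and 32.4 per far cell, at log2 0.15 ± 0.05 per volume (adjusted p = 0.0119) and -0.07 per cell, where it was not called.

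Neuronal transcripts were lower in near microglia. Meg3, a noncoding RNA abundant in neurons, averaged 7.20, 5.56, 9.54 and 9.49 counts per near cell and 12.6, 11.1, 16.9 and 22.0 per far cell. Per cell every near value lay below every far value. Per volume the groups overlapped, though Meg3 was lower near on each coverslip, at log2 -0.74 ± 0.06 (adjusted p = 1.02e-08, edgeR). Sst, the somatostatin gene of a class of inhibitory neurons, averaged 0.585, 0.122, 0.200 and 0.350 near and 0.795, 0.769, 0.704 and 1.87 far. It showed the largest decrease per volume among the called genes, log2 -1.54 ± 0.23 (adjusted p = 1.89e-05), but was not called in matched squares (-0.91). Of the 11 measured neuronal genes 6 fell and none rose per volume, and 8 fell and none rose per cell. The others that fell per volume were Bcl11b, a transcription factor gene of deep-layer and striatal neurons (-0.54), the GABA-synthesis genes Gad2 (-0.45) and Gad1 (-0.39), and the glutamate transporter gene Slc17a6 (-0.33). The list's sum was 8.22 to 14.8 counts per near and 16.05 to 31.8 per far cell.

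Meg3 in microglia fell toward vessels, from 15.6 counts in far cells and 15.8 at 25 to 40 units to 12.5 at 15 to 25, 10.2 at 10 to 15 and 4.84 within 10 units. It was not called among cells without Cldn5 and Pecam1 (-0.27). Peg3, an imprinted zinc-finger gene, averaged 1.09 ± 0.420 near and 2.13 ± 0.969 far (log2 -0.72 ± 0.08), and Prkce, a protein kinase C gene, 0.606 ± 0.147 and 1.14 ± 0.289 (-0.69 ± 0.09). Both were called lower under each of the 27 alternatives except the fit without the coverslip block. The same held for Apc2, a neuronal relative of Apc (-0.47), and Sdc3, a heparan sulfate proteoglycan gene (-0.48). Cx3cl1, the gene of fractalkine, averaged 0.787, 0.294, 0.776 and 1.01 counts per near cell and 1.19, 0.688, 1.65 and 1.48 per far cell. It was lower near on each coverslip, with overlapping ranges, at log2 -0.61 ± 0.11 (adjusted p = 0.000109). These sums pool Cx3cl1(-/-) and wild-type sections.

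Of 4 genes of oligodendrocyte precursors 1 rose per volume, the proteoglycan gene Cspg4 (0.41), which mural cells also express, and none fell; per cell none rose (Cspg4 0.19) and 1 fell, the transcription factor gene Sox10 (-0.45). Of 3 genes of leptomeningeal fibroblasts Wnt5a rose and none fell on either scale. The counts of the Wnt lists stand against 25.2% higher and 14.1% lower among all genes per volume, and 11.9% and 23.7% per cell. Of 19 measured receptor and co-receptor genes 8 rose and none fell per volume, with a median of log2 0.43; besides Adgra2, Lrp5 and Fzd4 these included Fzd7 (0.53) and the tyrosine-kinase-like genes Ptk7 (0.40) and Ryk (0.29). Among the risen, Adgra2, Fzd4, Fzd10 and Fzd1 passed the blank rule through the near group only, so the size of this median is uncertain. Per cell 1 rose, Adgra2, and 1 fell. Of 19 genes of ligands and their secretion 2 rose and none fell per volume, and 2 rose and 1 fell per cell. The 2 that rose on both scales were Wnt5a, a ligand of planar and calcium signalling (1.33 ± 0.17), and Wls, the carrier of Wnt proteins to the surface (0.56 ± 0.11). Wnt5a averaged 0.170, 0.202, 0.155 and 0.221 counts per near cell and 0.0886, 0.0571, 0.0861 and 0.116 per far cell, and was not called in matched squares (1.02). Wnt5a, too, passed the blank rule through the near group only.

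Of 16 genes acting inside the cell 3 rose and 4 fell per volume, and 3 rose and 8 fell per cell. Risen were Tcf7l1, a mostly repressive factor of the pathway (1.20 ± 0.14), Lef1, and Daam2, a formin that modulates the pathway (0.80 ± 0.13). Fallen were Apc2, Apc (-0.30), Gsk3b (-0.29) and Btrc (-0.34), which act in the breakdown of beta-catenin. Csnk1a1 (0.01) and Fbxw11 (0.02), which act there too, were not called per volume; per cell Csnk1a1 fell (-0.22). The beta-catenin gene itself, Ctnnb1, was at 0.01 and not called per volume, and fell by 0.21 per cell (adjusted p = 0.0136, edgeR). Of 7 antagonist genes Sfrp2 fell (-0.65 ± 0.15) and none rose. Of 10 proteoglycan genes Gpc3 rose (1.15 ± 0.21), and Sdc3, Gpc1 (-0.29) and Gpc5 (-0.40) fell. Tcf7l1, Lef1 and Gpc3 passed the blank rule through the near group only, and Sfrp2 through the far group only. The sizes of the differences of these genes are uncertain. The ezrin gene Ezr, a linker of membrane and actin, rose by 0.61 ± 0.11.

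The same distances were applied to astrocytes (6851 near, 31089 far) and oligodendrocyte precursors (3252 near, 21547 far) to see whether microglia differed from them. Of 130 genes tested with edgeR for a difference between the classes, 15 (11.5%) differed from astrocytes, 8 more positive and 7 less positive in microglia. Against oligodendrocyte precursors 18 differed (13.8%), 1 more positive and 17 less positive. The median difference over all genes was 0.01 against astrocytes and -0.12 against oligodendrocyte precursors. Vim (difference 0.70 ± 0.12, adjusted p = 0.000675), Id1 (0.96 ± 0.17) and Pdgfrb (1.23 ± 0.22) rose more in microglia than in astrocytes. Pdgfrb rose less than in oligodendrocyte precursors (-0.78 ± 0.25, adjusted p = 0.0443), and Gfap more (0.84 ± 0.22, adjusted p = 0.0167). The precursors, unlike microglia, were limited in Aqp4 counts, and both other classes were limited in Csf1r counts. The effect of these limits on the class differences was not tested. The differences of Adgra2, Lef1, Lrp5 and P2ry12 were not called against either class. Meg3 fell more in microglia than in oligodendrocyte precursors (-0.50 ± 0.12), and Peg3 more than in both (-0.52 against astrocytes and -0.65 against precursors).

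Tmem119 rose in all 3 classes and least on the log2 scale in microglia. It was at log2 1.40 in astrocytes and 2.29 in oligodendrocyte precursors, and the difference of microglia was -0.99 ± 0.14 (adjusted p = 0.000213, edgeR) and -1.87 ± 0.17 (adjusted p = 2.53e-06). In counts, Tmem119 went from 0.115 far to 0.267 near in astrocytes and from 0.0620 to 0.271 in oligodendrocyte precursors. Both far values lay below the highest blank per far microglial cell, which was 0.122 to 0.259. The blank rule was not checked in astrocytes or precursors, so the sizes of their log2 rise and of the class differences are uncertain. The near-minus-far gap was 0.152 ± 0.039 counts per cell in astrocytes, 0.209 ± 0.045 in oligodendrocyte precursors and 0.422 ± 0.262 in microglia (SD, n = 4). Vessel cells held 0.280 Tmem119 counts and cells with at least 5 Pdgfrb counts held 0.439. The gap in microglia varied widely, from 10.9% to 251% of the vessel-cell level over the coverslips. P2ry12 was at 0.0870 counts in vessel cells, and its gap in microglia was 0.291 counts on average but below 0 on coverslip 1.

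**Figure D5:**
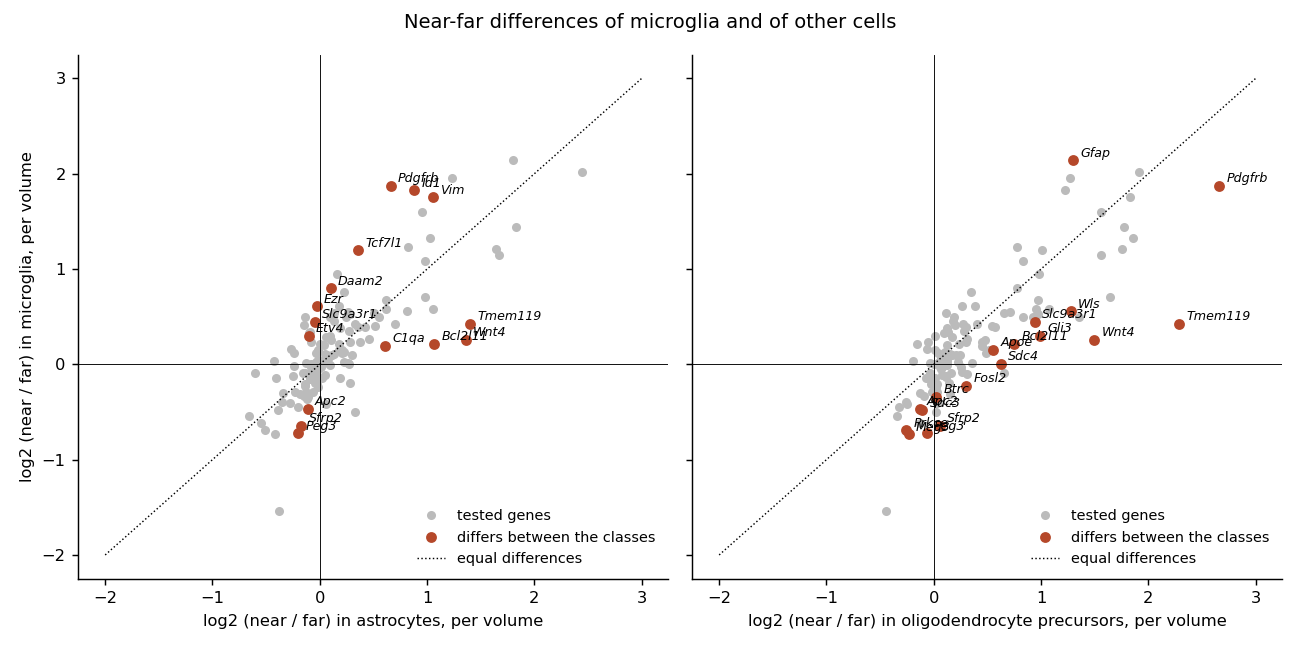
Log2 difference of near over far per volume in microglia (y axis) against that in astrocytes (left, x axis) and in oligodendrocyte precursors (right, x axis) for 130 genes; coloured points are genes whose difference was called between the classes, and the dotted line marks equal differences. Tmem119 lay at 0.42 on the y axis and at 1.40 and 2.29 on the x axes, whereas Pdgfrb lay above the line against astrocytes and below it against oligodendrocyte precursors.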

How the data were processed

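Decoded transcripts were deposited by the authors as counts per segmented cell for 140 genes and 40 blank barcodes, with the cell centre and volume as other measures whose unit the deposited headers do not give. Per the deposited files the counts are not normalized; decoding and segmentation software is not given in the sources used here. Counts were summed over near and over far microglia of each coverslip (8 sums) and tested with edgeR 4.0.16 (R 4.3.3; quasi-likelihood, two-sided), with coverslip as a block, summed volume as offset and at least 10 counts in at least 4 sums, which every gene met. The coverslip block rests on near and far cells sharing a coverslip. Each SE of a log2 difference was its absolute value divided by the square root of the F value. Benjamini-Hochberg adjustment covered all tested genes. Astrocytes had at least 5 Slc1a3 and 3 Aqp4 counts. Oligodendrocyte precursors had at least 5 Pdgfra counts, at least 1 of Sox10 or Cspg4, and fewer than 3 of Aqp4. Both classes had fewer than 3 Csf1r and fewer than 5 Cldn5 counts, whereas microglia had no Aqp4 limit. The genes of these rules and of the microglial and vessel rules were not tested between classes. Near and far cells of all classes entered 1 fit as independent sums, and the blank rule was checked in microglia only. The fit was tested on simulated data. Members, limits and lists were chosen with earlier results of these data known. Named genes were the 15 of smallest p in each direction, all measured genes of the microglia, border macrophage, Apoe, endothelial, mural and vessel Wnt lists, and up to 4 examples of each other list. The values of 1 gene of the microglia list are not reported here; it remained in the fits and in counts over all genes. Alternatives changed scaling, tool (DESeq2 1.42.0), filters, distances, rules, matching and left-out coverslips.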

Additional observations from a re-analysis of the deposited data

Results flagged for a closer look

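A value was listed here when 1 coverslip stood apart from the other 3 or when a test found a difference between cell classes for a gene named by the rule. Of the 15 and 18 genes that differed from astrocytes and from oligodendrocyte precursors, others that the rule did not name are not listed; Wnt4, chosen after its values were seen, was at -1.10 and -1.23. Of 52 groups of 4 coverslips examined, 3 had a value that stood apart, where chance gives about 1 in 20. Wnt5a on coverslip 2 was at log2 2.05 near over far per volume, against 1.10 to 1.16 on the others. Gpc1 on coverslip 3 was at -0.02, against -0.38 to -0.41. The near-minus-far difference of blank counts per cell on coverslip 3 was -0.307, against -0.189 to -0.203.

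The near-far difference of microglia was larger than that of astrocytes, on the log2 scale, for Tcf7l1 by 0.84, Ezr by 0.64, Vim by 0.70, Id1 by 0.96, Pdgfrb by 1.23 and Daam2 by 0.76. It was lower than that of astrocytes for Tmem119 (-0.99), C1qa (-0.41), Peg3 (-0.52), Apc2 (-0.35) and Sfrp2 (-0.46). Against oligodendrocyte precursors it was larger for Gfap (0.84). It was lower for Tmem119 (-1.87), Peg3 (-0.65), Prkce (-0.43), Sfrp2 (-0.68), Meg3 (-0.50), Sdc3 (-0.36), Apoe (-0.40), Apc2 (-0.33) and Pdgfrb (-0.78). C1qa and Apoe, called per volume in near microglia, changed sign per cell there.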

How the results depend on the processing

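Of 34 genes higher and 19 lower near, 5 (Adgra2, Aqp4, Gfap, Id1, Vim) and 4 (Apc2, Peg3, Prkce, Sdc3) were called under each of 27 alternatives except the fit with no coverslip block, which called 10 higher and 1 lower. Higher genes numbered 22 with TMM factors, 16 per cell, 17 with DESeq2, 19 in cells without Cldn5 and Pecam1 and 15 in matched squares. Lower genes numbered 32 per cell, 10 with Csf1r and Cx3cr1 at 5 or more, 12 with Mrc1 below 2, 8 without Cldn5 and Pecam1 and 10 in matched squares. Among alternatives chosen after seeing the data, cells with no Pdgfrb-rich or Mrc1-rich neighbour gave 15 higher and 6 lower, matched volumes 9 lower, and matched squares per cell 7 higher. Without 1 coverslip, 26 to 33 were higher and 15 to 19 lower. Against astrocytes, TMM gave 13 more positive and the fit without block 0 and 0. Against oligodendrocyte precursors, TMM gave 5 more and 8 less positive, no blank rule 2 more, no block 0 and 1, and a block for each class, chosen after seeing the data, 2 more; without 1 coverslip 0 to 2 were more and 6 to 14 less positive. The log2 difference of Apoe reversed per cell (-0.071), with DESeq2 (-0.037) and in matched squares per cell (-0.033), that of C1qa (-0.027) per cell, and that of Itgam in matched squares per cell (-0.058). Over 41 named genes and 1107 values, 950 stayed on their side of the threshold, 144 lost the call, 8 gained it and 5 of called genes reversed. Genes without a call could change sign among the 950, as Ptprc (0.12 to -0.10) and Lrp6 (0.00 to -0.23) did per cell.

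The share of microglia within the near limit exceeded that of other cells by 5.13 percentage points at 15 units, 2.37 at 10 and 6.72 at 20. Near minus far, the volume difference of -132 was -244 at a limit of 10 units, -94.9 at 20 and -95.2 against far cells with a neighbour. Gene counts (-11.8) and blank counts (-0.222) per cell were at -34.9 and -0.479 at 10 units. Gene counts per 1000 volume units (20.4) were at 14.1 against far cells with a neighbour and 13.9 in matched squares. Cell centres within 15 units, vessel cells included (1.25), were at 1.37 at 10 units, 0.891 at 20, 0.833 against far cells with a neighbour and 1.13 in matched squares. Those within 30 units (2.38) were at 1.59 against far cells with a neighbour. The causes of these changes were not tested. Tcf7 and Fzd6, which did not exceed the blanks, passed the adjusted p and were left uncalled by the blank rule.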
